A study of Mus musculus with 36 samples.

Results

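Type I interferon-stimulated genes are genes that cells transcribe when interferon-α or interferon-β reaches them. The list described here takes genes by name, and no measured value enters that rule. The names were chosen with earlier results of these data known. All 37 genes of the list were found among the 24781 genes of the deposited count table. By role they are 5 sensors of nucleic acid, 3 transcription factors, 5 genes of the ISG15 system and of ubiquitin ligation, 11 effectors that act on RNA or its translation, 5 effectors that act on membranes, GTP or nucleotides, 3 genes of the PARP9 complex and 5 others.

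The libraries come from mouse tumours of MC38, a colon adenocarcinoma line, in a study that asked how B cells and the metabolite GABA shape immunity to a tumour. On day 7 after intradermal inoculation, 100 cells per library were sorted as tumour-associated macrophages (TAM, CD45+CD11b+F4/80high) or as CD8+ T cells (CD45+TCRbeta+CD8+). For each cell type there were 6 libraries from wild-type (WT) mice, 6 from *muMt*-/- mice, without mature B cells, and 6 from *muMt*-/- mice that carried a slow-release GABA pellet under the skin, with 1 mouse behind each library and 36 libraries in all. The *muMt*-/- mice were C57BL/6J and the WT mice C57BL/6J or C57BL/6N, so the substrain of the WT group is not settled. The labels name no treatment for the groups without GABA, the paper describes placebo pellets for them, and no age is labelled. Whether a TAM and a CD8+ library came from the same mouse is not labelled either. *Ighm*, the gene that the *muMt* mutation disrupts, was not analysed, so the genotype was not checked on it.

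Type I interferons bind a receptor made of IFNAR1 and IFNAR2, whose kinases JAK1 and TYK2 phosphorylate STAT proteins, STAT2 among them. With IRF9 these form the complex ISGF3, which binds interferon-stimulated response elements (ISRE) in the promoters of many of these genes, and several products of the list, such as IRF7 and USP18, feed back on the pathway. Interferon-γ (IFNγ), made by activated T cells and NK cells, acts through its own receptor on GAS elements, induces many of the same genes, and drives antigen presentation and chemokine genes in tumour macrophages.

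The deposited values are counts of barcoded cDNA molecules primed on poly(A) RNA. WT TAM libraries held 206394 to 304100 molecules, *muMt*-/- TAM libraries 100254 to 253608 and GABA-treated *muMt*-/- TAM libraries 151856 to 262606. For CD8+ T cells the ranges were 22896 to 76898, 51064 to 77839 and 65356 to 98015. Of these, 348 to 1434 molecules per TAM library and 43 to 226 per CD8+ library belonged to the 37 genes. The TAM libraries had a molecule of 33 to 37 of the genes each and the CD8+ libraries of 21 to 36. The level used below is the normalized number of molecules, the count divided by the DESeq2 size factor of the library, taken over the 18 libraries of a cell type or, where the cell types are compared, over all 36. The counts are not divided by the length of the RNA, and where a gene is called the most abundant, its number of molecules is meant. In bulk libraries such as these, fewer cells of a type and less RNA per cell cannot be told apart.

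The labelled cell types were checked on marker genes. T cell markers held 0.255% to 0.811% of the molecules of CD8+ libraries, with *Thy1* the most abundant and 0 of 17 without a molecule, and at most 0.00752% in TAM libraries. Macrophage markers held 1.26% to 2.74% of the molecules in TAM libraries and 0.0525% to 0.952% in CD8+ libraries, with *Ctss* the most abundant of the 22 in both. B cell markers stayed at or under 0.00997% in every library. No pair of libraries of a group looked like copies of each other: over 90 pairs, the chi-square statistic of the gene counts divided by its degrees of freedom was at least 1.18.

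Each comparison of groups was tested over all genes with a mean normalized number above 1, with edgeR's quasi-likelihood test and Benjamini-Hochberg adjustment, and a gene passed when its adjusted p was under 0.05. All 37 genes of the list could be tested in TAMs. For CD8+ T cells 31 could be tested, and *Oas1a*, *Oas2*, *Oasl1*, *Ifi44*, *Mx2* and *Phf11d* had too few molecules. Groups were compared within a cell type for the lack of B cells (*muMt*-/- against WT), for GABA (GABA-treated against untreated *muMt*-/-) and for both together, and these comparisons share their control libraries. Between the cell types, WT TAMs were compared with WT CD8+ T cells in a fit to all 36 libraries, in which 36 of the 37 genes could be tested (all but *Mx2*).

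In TAMs, 0 of the 37 genes passed between *muMt*-/- and WT mice, where 2.05% of all 9469 genes tested did. At an unadjusted p under 0.05 there was 1 gene of the list, *Usp18*, where 14.9% of all genes were under that value. The median log2 fold change of the 37 genes was -0.03, with 18 genes higher and 19 lower, and that of all genes was -0.05. Between GABA-treated and untreated *muMt*-/- mice, again 0 passed against 0.0211% of all genes, 2 genes (*Irf9* and *Usp18*) had an unadjusted p under 0.05 against 8.46% of all genes, and the medians were -0.02 for the list and 0.06 for all genes. Between GABA-treated *muMt*-/- and WT mice, 0 passed against 0.0739%, 3 genes (*Samd9l*, *Oas2* and *Ifi35*) had an unadjusted p under 0.05 against 7.02%, and the medians were 0.11, with 24 genes higher and 13 lower, and 0.02. DESeq2 called 0 genes of the list in each of these comparisons after adjustment, and 1, 2 and 1 genes at an unadjusted p under 0.05. The share of the list under the unadjusted threshold was therefore near or below that of all genes.

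In CD8+ T cells, 0 of the 31 genes passed between *muMt*-/- and WT mice, where the share of all 6663 genes tested was 0%. The list had 2 genes with an unadjusted p under 0.05 (*Ifit3* lower and *Zbp1* higher), against 6.17% of all genes. The median log2 fold change was 0.17 for the list and 0.15 for all genes. Between GABA-treated and untreated *muMt*-/- mice, 0 passed against 0% of all genes, 1 gene (*Samd9l*, higher) had an unadjusted p under 0.05 against 3.71%, and the medians were -0.11 for the list and 0.03 for all genes. Between GABA-treated *muMt*-/- and WT mice, 0 passed against 0%, 1 gene (*Zbp1*, higher) had an unadjusted p under 0.05 against 6.89%, and the medians were 0.14 and 0.21. DESeq2 called 0 genes of the list after adjustment and 2, 1 and 0 at an unadjusted p under 0.05. The medians against WT mice carry a shift of the scaling: with DESeq2's size factors in place of TMM, the median of all genes was 0.06 in both, and that of the list was 0.08 for *muMt*-/- mice and -0.00 for GABA-treated ones. Single fold changes in CD8+ T cells against WT mice are to be read against that shift.

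Between the cell types in WT tumours, 18 of the 36 genes tested passed, all 18 higher in TAMs, where 22.7% of all 8477 genes passed and 16.8% passed in that direction. The list had 25 genes with an unadjusted p under 0.05, against 32.6% of all genes. The median log2 fold change was 1.27 for the list, with 33 genes higher in TAMs and 3 lower (*Ddx58*, *Ifit3* and *Isg20*), and 0.36 for all genes. With size factors in place of TMM the medians were 1.11 and 0.20, and again 18 genes passed. DESeq2's own test called 15, and with edgeR's filterByExpr in place of the filter 11 passed. Every TAM library was deeper than every CD8+ library, so depth and cell type cannot be told apart, and with the log2 depth as a covariate 2 genes passed (*Ifi204* and *Parp14*). The fold changes of the other 16 in that fit were all above 0, from 0.37 (*Ifih1*) to 3.21 (*Oas1a*). Only *Trim30a* (1.27), *Stat2* (1.94) and *Eif2ak2* (1.86) were no smaller than without the covariate. The rest were smaller, among them *Rsad2* (0.65, against 2.40 without it) and *Zbp1* (0.97, against 1.79). Of the 36 genes, 6 had 1 to 3 molecules in all WT CD8+ libraries together, and with these at the lower limit of their counting interval the median of the list was 1.04. Among the 6, *Oas1a*, *Oas2*, *Oasl1*, *Ifi44* and *Phf11d* were too low to be tested in CD8+ T cells alone. They were tested here largely through their TAM molecules, which favours a call as higher in TAMs. *Oas1a*, *Oasl1* and *Phf11d* are counted among the 18.

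Whether an effect differed between the cell types was tested as an interaction. For *muMt*-/- against WT mice, 0 of 36 genes had an effect in TAMs that differed from that in CD8+ T cells, where 0.0118% of all genes did. At an unadjusted p under 0.05 there was 1, *Zbp1*, against 10.1% of all genes, and the medians of the difference were -0.27 for the list and -0.30 for all genes (-0.08 and -0.11 with size factors). For GABA-treated against untreated *muMt*-/- mice, 0 passed against 0%, 0 had an unadjusted p under 0.05 against 4.53%, and the medians were 0.05 and 0.01. DESeq2 gave 0 genes after adjustment for both, and 1 and 0 at an unadjusted p under 0.05.

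**Figure D1:**
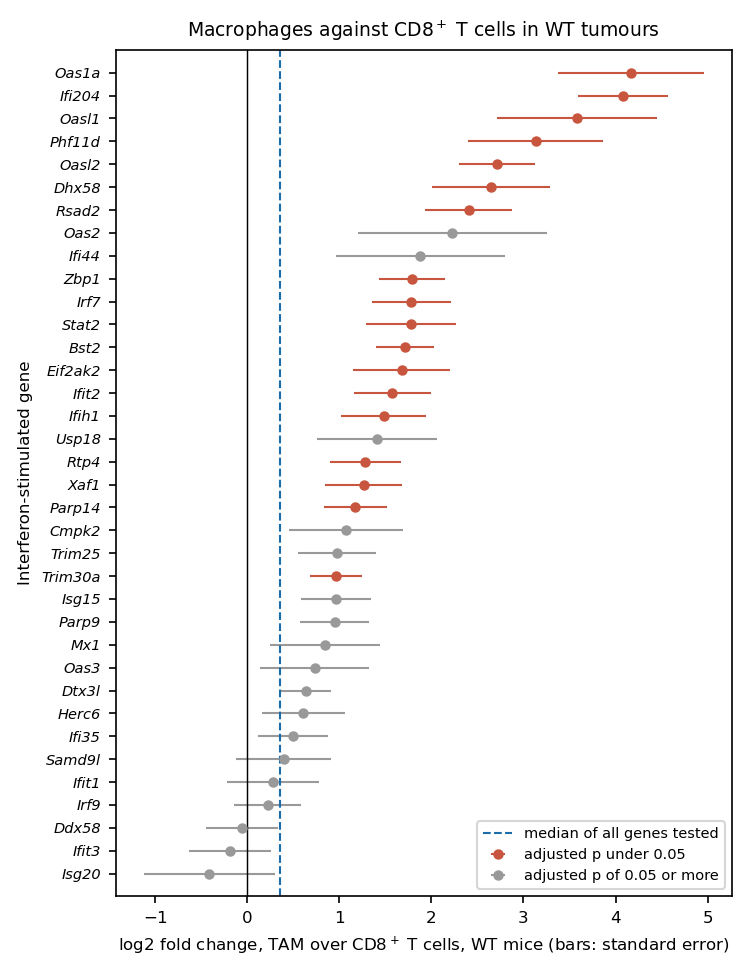
Log2 fold change of 36 interferon-stimulated genes between TAMs and CD8+ T cells of WT tumours (points, with standard errors as bars), by edgeR over 36 libraries, with genes of adjusted p under 0.05 in red. The 18 genes that passed all lie to the right of the median of all genes tested (dashed line, 0.36), and *Ifit3*, *Ddx58* and *Isg20* lie at or left of 0.

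Of the sensors, *Ifih1* (MDA5) and *Ddx58* (RIG-I) encode helicases that detect viral RNA, *Dhx58* encodes their regulator LGP2, *Zbp1* encodes a sensor of Z-form nucleic acid, and *Ifi204* encodes a DNA sensor of the PYHIN family. *Ifi204* had 31.8 to 49.4 normalized molecules in WT TAM libraries (median 42.4) and 0 to 7.39 in WT CD8+ libraries (median 0.947). Every TAM library stood above every CD8+ library. The log2 fold change was 4.08 (standard error 0.49, adjusted p = 1.5e-09), and near-identical genes of the *Ifi204* family make the assignment of reads to it uncertain. *Zbp1* was at 21.2 to 30.9 (median 25.0) in TAMs and 0 to 12.5 (median 8.58) in CD8+ T cells, again without overlap, a log2 fold change of 1.79 (adjusted p = 8.3e-05, standard error 0.36). *Ddx58* was the sensor without such a difference, with 4.41 to 8.12 in TAMs, 3.79 to 9.58 in CD8+ T cells and a log2 fold change of -0.06 (adjusted p = 0.941). *Dhx58* (2.65, adjusted p = 0.00106) and *Ifih1* (1.48, adjusted p = 0.0133) passed as well. *Dhx58* had 91 molecules in the WT TAM libraries and 3 in the WT CD8+ libraries, a ratio of 6.10 after scaling (95% exact interval from 2.02 to 30.1, counting error alone). *Ifih1* lost the call under DESeq2 (adjusted p = 0.0665).

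Within TAMs, *Ifi204* was at 55.4 to 82.9 normalized molecules in WT mice (median 72.3), 48.6 to 83.4 in *muMt*-/- mice (median 66.6) and 31.9 to 87.0 with GABA (median 60.2). The groups overlapped and the spread was widest with GABA. *Zbp1* ranged from 37.1 to 53.5 in WT mice (median 42.5), from 17.0 to 52.5 in *muMt*-/- mice (median 27.7) and from 23.4 to 62.4 with GABA (median 40.3). The *muMt*-/- libraries reached lower than every WT library but overlapped with them, and the log2 fold change was -0.41 (standard error 0.22, adjusted p = 0.394).

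In CD8+ T cells, *Zbp1* had 0 to 7.22 normalized molecules in WT mice (median 5.04), 5.94 to 10.1 in *muMt*-/- mice (median 9.57) and 3.10 to 15.8 with GABA (median 8.16). The medians of both *muMt*-/- groups stood above the highest WT library, and both groups overlapped with WT. Against WT mice the log2 fold change was 0.99 without GABA (standard error 0.41, adjusted p = 0.686) and 1.0 with GABA (standard error 0.40, adjusted p = 0.593), and the WT libraries are shared. For *Zbp1* the effect of the genotype in TAMs minus that in CD8+ T cells was -1.43 (standard error 0.48, unadjusted p = 0.00435, adjusted p = 0.276), the lowest p of the list for that difference. *Ifih1* was at 1.03 to 2.40 in WT (median 2.23), 0.833 to 4.05 in *muMt*-/- (median 2.91) and 0 to 3.15 with GABA (median 1.24), with overlap of all groups and a log2 fold change of -0.95 with GABA against without (adjusted p = 0.999). *Ifi204* was at 0 to 4.42 in WT (median 0.572), 0 to 11.1 in *muMt*-/- (median 2.73) and 0 to 5.52 with GABA (median 3.69). Its log2 fold change between *muMt*-/- and WT mice was 1.34 (standard error 0.76, adjusted p = 0.850). It was 0.80 without *muMt*-/- replicate 1, which held 11.1 and the highest macrophage marker share of its group (0.952%), 1.97 without WT replicate 6, and -0.27 with the log2 share of macrophage marker molecules as a covariate.

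Macrophage markers in the CD8+ libraries had a higher median share in both *muMt*-/- groups than in WT, and the groups overlapped. They held 0.0525% to 0.331% of the molecules in WT (median 0.104%), 0.192% to 0.952% in *muMt*-/- (median 0.265%) and 0.114% to 0.560% with GABA (median 0.361%). Of the 22 markers, 19 could be tested. All 19 had a log2 fold change above 0 against WT mice in either *muMt*-/- group, with medians of 1.87 and 1.90. In either group 0 of 19 passed by edgeR, where 0% of all genes did. At an unadjusted p under 0.05 there were 16 and 15 of them, against 6.17% and 6.89% of all genes. *Ctss* was the most abundant, every marker had a molecule in some CD8+ library, and *Mrc1* had none in the WT ones. The part of such RNA in the values of the interferon-stimulated genes in CD8+ T cells was not tested, apart from the covariate for single genes.

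The transcription factors of the list are *Irf7*, which encodes the inducible activator of interferon-α genes, and *Irf9* and *Stat2*, which encode parts of ISGF3. *Irf7* had 17.6 to 38.5 normalized molecules in WT TAMs (median 20.6) and 3.77 to 11.4 in WT CD8+ T cells (median 9.24). Every TAM library was above every CD8+ library. The log2 fold change was 1.78 (standard error 0.43, adjusted p = 0.000976). For *Stat2* it was also 1.78 (adjusted p = 0.00400), with 8.07 to 14.6 in TAMs and 0 to 9.47 in CD8+ T cells, where 1 TAM library lay within the range of the CD8+ libraries. *Irf9* did not pass, at 4.90 to 8.57 in TAMs, 3.70 to 9.47 in CD8+ T cells and a log2 fold change of 0.22 (adjusted p = 0.735).

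Within TAMs, *Irf7* was at 30.4 to 64.7 in WT mice (median 35.7), 15.3 to 52.8 in *muMt*-/- mice (median 36.3) and 13.3 to 59.4 with GABA (median 42.5). The medians lay close together, and both *muMt*-/- groups had libraries below every WT library. *Irf9* was at 8.53 to 15 in WT mice (median 12.6), 11.3 to 18.7 in *muMt*-/- mice (median 14.0) and 4.99 to 17.3 with GABA (median 9.26). With GABA most libraries lay under the lowest untreated *muMt*-/- library, the groups overlapped, and the log2 fold change was -0.59 (standard error 0.26, unadjusted p = 0.0273, adjusted p = 0.517). The CD8+ T cells had *Irf7* at 2.25 to 6.86 in WT (median 5.33), 2.02 to 6.86 in *muMt*-/- (median 5.10) and 0 to 7.88 with GABA (median 4.65), with overlap of all groups. The log2 fold changes of *Irf7*, *Irf9* and *Stat2* in CD8+ T cells lay between -0.23 and 0.49 over the comparisons.

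*Isg15* encodes the ubiquitin-like modifier ISG15, *Usp18* the protease that removes it and also blocks the interferon receptor, *Herc6* the mouse ligase that attaches it, *Trim25* a ubiquitin ligase that acts on RIG-I, and *Trim30a* a TRIM protein that dampens inflammatory signalling. *Isg15* had 9.77 to 22.8 normalized molecules in WT TAMs (median 16.9) and 7.58 to 14.8 in WT CD8+ T cells (median 8.84). The ranges overlapped, with 4 of 6 TAM libraries above every CD8+ library, and the log2 fold change of 0.96 did not pass (standard error 0.38, adjusted p = 0.0623). Over the other settings its fold change ran from -0.25 (depth as a covariate) to 1.07 (no filter on low counts), and it passed without the filter (adjusted p = 0.0152) and in a robust fit. *Trim30a* did, with 34.8 to 46.9 (median 39.4) against 16.3 to 33.0 (median 24.1), no overlap and a log2 fold change of 0.97 (adjusted p = 0.00724, standard error 0.28). It lost the call with edgeR's filterByExpr (0.68, adjusted p = 0.0520), and its reads may be shared with near-identical *Trim30* genes. *Usp18*, *Herc6* and *Trim25* were higher in TAMs by 0.61 to 1.41 and did not pass, and *Usp18* passed without the filter (adjusted p = 0.0355).

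Within TAMs, *Isg15* was at 16.7 to 38.3 in WT mice (median 29.0), 18.8 to 50.7 in *muMt*-/- mice (median 30.1) and 19.3 to 56.4 with GABA (median 30.9). The medians were alike and the upper end was higher in both *muMt*-/- groups. *Usp18* was at 7.27 to 15.3 in WT mice (median 10.2), 0 to 9.22 in *muMt*-/- mice (median 7.26) and 0 to 20.1 with GABA (median 9.67). Without GABA, 2 *muMt*-/- libraries had no molecule of it, and with GABA 1 had none. The log2 fold changes of *Usp18* were -0.88 between *muMt*-/- and WT mice (standard error 0.43, unadjusted p = 0.0458, adjusted p = 0.325), 0.92 with GABA against without (standard error 0.44, unadjusted p = 0.0430, adjusted p = 0.576) and 0.04 with GABA against WT. The 3 values share groups, and the untreated *muMt*-/- libraries enter the first 2 of them. *Trim30a* was at 60.5 to 81.2 in WT mice (median 67.2), 47.8 to 88.6 in *muMt*-/- mice (median 64.4) and 22.6 to 75.1 with GABA (median 54.8), with the lowest level of all groups in a GABA library.

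*Isg15* in CD8+ T cells was at 4.57 to 8.84 in WT (median 5.21), 1.12 to 9.0 in *muMt*-/- (median 4.89) and 1.56 to 11.4 with GABA (median 3.54). The groups overlapped over most of their range. *Trim30a*, with the highest mean of the list in this cell type, was at 9.76 to 19.2 in WT (median 14.2), 8.18 to 24.3 in *muMt*-/- (median 19.0) and 6.99 to 22.9 with GABA (median 10.8), with overlap of all groups. The log2 fold changes of the 5 genes of this role in CD8+ T cells ran from -0.58 to 0.83 over the comparisons. Of the 5, 0 had an unadjusted p under 0.05 by edgeR, against 3.71% to 6.89% of all genes.

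The effectors that act on RNA are the oligoadenylate synthetases *Oas1a*, *Oas2* and *Oas3*, whose product activates the ribonuclease RNase L, their relatives *Oasl1* and *Oasl2*, the kinase PKR encoded by *Eif2ak2*, which halts translation, the exonuclease gene *Isg20*, the genes *Ifit1*, *Ifit2* and *Ifit3*, whose products bind foreign RNA ends, and *Samd9l*, which encodes a restriction factor that stops translation. Between the cell types 5 of these 11 passed, all higher in TAMs, where 16.8% of all genes passed in that direction. *Oas1a* and *Oasl1*, among the 5, were too low to be tested in CD8+ T cells alone. *Oasl2* had 16.2 to 25.1 normalized molecules in WT TAMs (median 18.3) and 0 to 9.47 in WT CD8+ T cells (median 1.60). Every TAM library was above every CD8+ library, and the log2 fold change was 2.71 (standard error 0.41, adjusted p = 4.8e-07).

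*Oas1a* was at 4.80 to 12 in WT TAMs (median 6.85) and at 0 in 5 of the 6 WT CD8+ libraries, with 1.89 in the other. In molecules it was 104 against 1, a ratio of 20.9 after scaling (95% exact interval from 3.67 to 833). The fitted log2 fold change of 4.17 (adjusted p = 3.5e-05) depends on the prior count of the fit and is no bound, and reads of its near copy *Oas1g* may be assigned to it. For *Oasl1* the molecules were 122 against 2, a ratio of 12.3 (95% exact interval from 3.32 to 102) with a fitted log2 fold change of 3.58 (adjusted p = 0.00116). *Ifit2* was at 14.4 to 19.2 in TAMs (median 16.4) and 1.78 to 10.04 in CD8+ T cells (median 4.91), without overlap and with a log2 fold change of 1.58 (adjusted p = 0.00303, standard error 0.42). *Eif2ak2* was at 3.61 to 7.65 in TAMs (median 5.40) and 0 to 5.68 in CD8+ T cells (median 0.628), with overlap. It passed with 1.68 (adjusted p = 0.0134), and lost the call without CD8+ WT replicate 4 (1.38, adjusted p = 0.0660) and under DESeq2 (adjusted p = 0.0919).

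*Ifit3*, the neighbour of *Ifit2*, was as high in CD8+ T cells as in TAMs of WT mice. It had 7.65 to 18.7 in TAMs (median 11.5) and 3.19 to 24.6 in CD8+ T cells (median 13.6), so that the CD8+ range enclosed that of the TAMs. The log2 fold change was -0.18 (standard error 0.44, adjusted p = 0.826), and reads of *Ifit3b* cannot be fully separated from it. *Ifit1* (0.28), *Samd9l* (0.40), *Oas3* (0.73) and *Isg20* (-0.41) had no difference that passed either, and *Oas2* (26 molecules against 1, ratio 5.23, 95% exact interval from 0.858 to 214) did not pass. Without CD8+ WT replicate 4, which holds the single molecule of *Oas2* in the WT CD8+ libraries, it passed (adjusted p = 0.0451).

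Within TAMs, *Ifit3* was at 13.1 to 32.3 in WT mice (median 20.03), 4.18 to 28.6 in *muMt*-/- mice (median 16.4) and 5.31 to 39.3 with GABA (median 22.5). Low libraries occurred in both *muMt*-/- groups and the ranges overlapped. *Samd9l* was at 4.26 to 15 in WT mice (median 7.46), 3.11 to 30.7 in *muMt*-/- mice (median 11.2) and 10.8 to 24.2 with GABA (median 18.4). With GABA every library stood above the WT median, and the log2 fold change against WT mice was 1.01 (standard error 0.30, unadjusted p = 0.00175, adjusted p = 0.313). In a fit without the filter on low counts it passed (0.98, adjusted p = 0.0259). For *muMt*-/- against WT mice the value of *Samd9l* was 0.47 (adjusted p = 0.552) and for GABA-treated against untreated 0.54 (adjusted p = 0.664), and without *muMt*-/- replicate 4, at 30.7, they were 0.08 and 0.93, neither of which passed. *Oas2* was at 0.923 to 4.39 in WT mice (median 3.40), 1.39 to 7.47 in *muMt*-/- mice (median 3.71) and 1.33 to 9.14 with GABA (median 6.58), and the log2 fold change with GABA against WT was 0.86 (standard error 0.40, adjusted p = 0.684). *Oas3* was at 0.923 to 11.9 in WT mice (median 6.06), 3.13 to 9.32 in *muMt*-/- mice (median 5.25) and 3.98 to 12.3 with GABA (median 8.59). The ranges of *Oas3* lay within each other for the most part, with 0.71 for GABA-treated against untreated *muMt*-/- mice (adjusted p = 0.626). Of the 11 genes of this role, 0 passed by edgeR with GABA against WT or against untreated *muMt*-/- mice, where 0.0739% and 0.0211% of all genes did. At an unadjusted p under 0.05 there were 2 and 0 of them, against 7.02% and 8.46% of all genes, and DESeq2 called 0 after adjustment.

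*Ifit3* in CD8+ T cells had 1.83 to 14.9 normalized molecules in WT mice (median 8.03), 0 to 5.61 in *muMt*-/- mice (median 3.10) and 0.636 to 8.59 with GABA (median 4.70). The highest levels were those of WT libraries, whose range enclosed most of the other libraries. The log2 fold change of *Ifit3* between *muMt*-/- and WT mice was -1.49 (standard error 0.54, unadjusted p = 0.00935, adjusted p = 0.604), the lowest p of the list in this cell type, against a median of 0.15 for all genes. With GABA against WT it was -0.80 (adjusted p = 0.773). *Samd9l* was at 0 to 4.42 in WT (median 2.84), 0.818 to 6.07 in *muMt*-/- (median 1.51) and 2.54 to 8.59 with GABA (median 3.83). Its log2 fold change was 1.19 with GABA against without (standard error 0.47, unadjusted p = 0.0162, adjusted p = 0.999) and 0.92 with GABA against WT (adjusted p = 0.742). *Isg20* was at 0 to 4.42 in WT (median 1.43), 0 to 3.36 in *muMt*-/- (median 1.75) and 0.914 to 6.20 with GABA (median 2.88), with overlap and values of 1.01 and 1.16 for GABA-treated mice against the other groups (adjusted p = 0.999 and 0.767).

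*Mx1* and *Mx2* belong to the family of dynamin-like GTPase genes. *Rsad2* encodes viperin, which makes a chain-terminating nucleotide, and its neighbour *Cmpk2* encodes a mitochondrial nucleotide kinase. *Bst2* encodes tetherin, which holds budding virus at the membrane. *Rsad2* had 19.6 to 36.1 normalized molecules in WT TAMs (median 34.0) and 0 to 9.47 in WT CD8+ T cells (median 6.89). *Bst2* had 31.0 to 42.4 (median 35.5) and 3.19 to 26.5 (median 8.09). In both genes every TAM library was above every CD8+ library, and the log2 fold changes were 2.40 for *Rsad2* (standard error 0.47, adjusted p = 6.0e-05) and 1.71 for *Bst2* (standard error 0.31, adjusted p = 1.7e-05). *Mx1* (0.85) and *Cmpk2* (1.07) did not pass, and *Mx2* was too low to be tested.

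Within TAMs, *Rsad2* was at 34.1 to 62.3 in WT mice (median 57.3), 37.7 to 98.6 in *muMt*-/- mice (median 69.8) and 31.7 to 95.6 with GABA (median 51.0). *Cmpk2* was at 5.97 to 18.2 in WT mice (median 12.6), 0 to 36.1 in *muMt*-/- mice (median 16.2) and 6.64 to 24.7 with GABA (median 12.5). For both genes the untreated *muMt*-/- libraries reached higher than the WT libraries, for *Cmpk2* also lower, and the log2 fold changes between these groups were 0.39 (adjusted p = 0.421) and 0.60 (standard error 0.33, adjusted p = 0.405). *Bst2* in CD8+ T cells was at 1.83 to 16.0 in WT (median 4.84), 4.09 to 16.8 in *muMt*-/- (median 9.04) and 6.25 to 12.7 with GABA (median 6.95). The WT range covered nearly all of the other libraries, and the log2 fold changes against WT were 0.48 and 0.31.

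*Parp9* and *Parp14* encode ADP-ribosyltransferases and *Dtx3l* the ubiquitin ligase that pairs with PARP9. *Parp14* passed between the cell types, with 11.6 to 17.8 normalized molecules in WT TAMs (median 14.3), 3.77 to 18.5 in WT CD8+ T cells (median 6.40) and a log2 fold change of 1.17 (adjusted p = 0.00755, standard error 0.34). The highest CD8+ library stood above all TAM libraries. *Parp9* (0.95, adjusted p = 0.0601) and *Dtx3l* (0.64, adjusted p = 0.0899) did not pass. *Parp9* passed without the filter and without CD8+ WT replicate 6 (1.33, adjusted p = 0.0247). *Dtx3l* in CD8+ T cells was at 4.51 to 14.4 in WT (median 11.0), 3.36 to 9.16 in *muMt*-/- (median 7.73) and 8.05 to 11.9 with GABA (median 9.02). The groups overlapped, and the largest of its log2 fold changes was 0.45, with GABA against without (adjusted p = 0.999). Within TAMs the fold changes of these 3 genes ran from -0.36 to 0.28.

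The last group holds *Ifi44*, *Ifi35*, whose product binds the partner protein NMI, *Xaf1*, which encodes a proapoptotic factor, *Rtp4*, which encodes a chaperone of membrane receptors, and *Phf11d*, of a family of near-identical zinc finger genes. *Rtp4* had 9.30 to 15.8 in WT TAMs (median 14.0) and 1.78 to 14.8 in WT CD8+ T cells (median 6.80), a log2 fold change of 1.28 (adjusted p = 0.00899, standard error 0.38). The ranges overlapped, and without CD8+ WT replicate 6 it was 1.05 and did not pass (adjusted p = 0.0561). *Xaf1* had 7.65 to 15.8 (median 10.2) and 0 to 7.53 (median 4.69), without overlap, and 1.26 (standard error 0.41, adjusted p = 0.0191). It lost the call without CD8+ WT replicate 2 (1.06, adjusted p = 0.0639), without CD8+ WT replicate 4 (1.18, adjusted p = 0.0550), without TAM WT replicate 3 (1.10, adjusted p = 0.0550), without TAM WT replicate 6 (1.14, adjusted p = 0.0520), under DESeq2 (adjusted p = 0.0676) and with filterByExpr (adjusted p = 0.0516). *Phf11d* had 89 molecules against 2, a ratio of 8.94 (95% exact interval from 2.40 to 75.0) and a fitted log2 fold change of 3.13 (adjusted p = 0.00078). *Ifi44* (36 molecules against 2, ratio 3.62, 95% exact interval from 0.931 to 31.0) and *Ifi35* (0.50) did not pass. Within TAMs, *Ifi35* was at 12.9 to 18.2 in WT mice (median 14.8), 8.37 to 16.6 in *muMt*-/- mice (median 13.7) and 3.98 to 16.1 with GABA (median 10.9). With GABA most libraries lay below the WT range, and the log2 fold change was -0.49 (standard error 0.24, unadjusted p = 0.0450, adjusted p = 0.706).

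The interferons themselves were nearly absent from both cell types, with the exception of *Ifng* in T cells. Of 21 interferon genes in the table, 19 had no molecule in any TAM library and 20 had none in any CD8+ library. *Ifnb1* had 1 molecule, in TAM *muMt*-/- GABA replicate 5, and *Ifng* had 19 molecules in TAM libraries, 16 of them in TAM *muMt*-/- GABA replicate 1. In CD8+ libraries *Ifng* had 6091 molecules, at 101 to 326 normalized molecules in WT mice (median 262), 107 to 362 in *muMt*-/- mice (median 202) and 183 to 754 with GABA (median 398). The GABA group reached highest, and its log2 fold changes against the other groups did not pass (0.97, unadjusted p = 0.00106, adjusted p = 0.458 against WT, and 1.02, unadjusted p = 0.000609, adjusted p = 0.999 against untreated *muMt*-/- mice).

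For the receptor, *Ifnar1* was at 13.1 to 19.4 normalized molecules in WT TAMs (median 16.1), 13.2 to 23.0 in *muMt*-/- TAMs (median 16.5) and 10.8 to 14.2 with GABA (median 12.9). *Ifnar2* was at 21.3 to 40.2 (median 28.3), 26.1 to 35.0 (median 30.6) and 20.3 to 36.8 (median 27.1). Both overlapped between groups, with *Ifnar1* lowest with GABA (log2 fold change -0.43 against untreated *muMt*-/- mice, adjusted p = 0.614). *Ifnar1* in CD8+ T cells was at 0 to 4.42 in WT (median 2.12), 1.01 to 5.61 in *muMt*-/- (median 3.11) and 0.781 to 6.20 with GABA (median 2.55). *Ifnar2* there was at 0 to 4.57 (median 1.72), 2.24 to 5.94 (median 3.72) and 1.83 to 7.09 (median 3.45). Between the cell types in WT mice, *Ifnar1* (1.60, adjusted p = 0.00338) and *Ifnar2* (2.49, adjusted p = 8.1e-07) were higher in TAMs.

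*Irf1*, a target of both interferons, was at 48.7 to 74.8 in WT TAMs (median 57.8), 34.9 to 61.8 in *muMt*-/- TAMs (median 57.9) and 49.1 to 65.9 with GABA (median 54.1). *Irf1* in CD8+ T cells was at 4.42 to 19.4 (median 13.9), 11.2 to 26.3 (median 14.4) and 9.30 to 22.9 (median 11.7). Overlap between groups was wide in both cell types. Between the cell types, *Irf1* (0.78, adjusted p = 0.0162) was higher in TAMs.

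Other genes of the pathway were followed as lists. Of all genes, 2.05% passed between *muMt*-/- and WT TAMs and 14.9% had an unadjusted p under 0.05. Between *muMt*-/- and WT TAMs, 0 of 11 genes of interferon receptors and JAK-STAT signalling passed by edgeR, with 3 at an unadjusted p under 0.05, and 0 of 55 other genes known as induced by type I interferon passed, with an unadjusted p under 0.05 in 4 higher and 3 lower genes. Of 16 genes that act in the induction of interferon, 1 passed, *Irf2*, which encodes a repressor and activator at ISRE sites. It rose from 32.0 to 47.4 normalized molecules (median 37.9) in WT mice to 37.7 to 77.4 (median 63.3), with overlap and a log2 fold change of 0.68 (adjusted p = 0.0278, standard error 0.17). Of 29 IFNγ-induced genes, 1 passed, *Cd274*, which encodes the checkpoint ligand PD-L1. It rose from 32.7 to 65.9 (median 45.0) to 76.0 to 101 (median 83.6), without overlap, and by 0.84 on the log2 scale (standard error 0.16, adjusted p = 0.00349). Both genes were picked out after their values were seen, and no alternative fit was made for them. In the other 2 comparisons of TAMs and the 3 of CD8+ T cells, 0 genes of these 4 lists passed by edgeR, against 0% to 0.0739% of all genes. At an unadjusted p under 0.05 there were from 0 to 6 of each list, against 3.71% to 8.46% of all genes. Between *muMt*-/- and WT CD8+ T cells these were 5 higher and 1 lower of 26 IFNγ-induced genes, against 6.17% of all genes. There, 2 of 10 genes of the induction of interferon were higher as well. Between GABA-treated and untreated TAMs they were 1 higher and 5 lower of 55 other genes induced by type I interferon, against 8.46%.

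Between WT TAMs and WT CD8+ T cells the same lists gave 6 genes higher and 2 lower of 11 for receptors and JAK-STAT signalling, 10 higher of 16 for the induction of interferon, 22 higher of 29 for IFNγ-induced genes, and 21 higher and 2 lower of 55 for the other genes induced by type I interferon, where 22.7% of all genes passed and 16.8% as higher in TAMs. The medians of their log2 fold changes were 1.2, 1.51, 1.56 and 0.83, beside 1.27 for the 37-gene list and 0.36 for all genes. *Ifngr1* (-1.94) was among the genes lower in TAMs. *Ifng* itself had 1 molecule in the WT TAM libraries and 1066 in the WT CD8+ libraries. Macrophage markers passed as 22 higher of 22 and T cell markers as 17 lower of 17. Of the other marker lists, 4 of 9 monocyte markers were higher and 2 lower, 2 of 5 dendritic cell markers higher and 1 lower, 2 of 2 plasmacytoid dendritic cell markers, 1 of 4 neutrophil, 1 of 7 tumour and stroma and 1 of 1 B cell markers higher, 3 of 3 NK cell markers lower, and 0 of 3 nuclear RNAs passed by edgeR, with 0 at an unadjusted p under 0.05.

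The summed level of the 37 genes shows which libraries were high. In TAMs it was 725 to 900 normalized molecules in WT mice (median 799), 628 to 1001 in *muMt*-/- mice (median 855) and 487 to 1172 with GABA (median 804). The coefficient of variation between libraries was 7.92% in WT mice, 20.1% in *muMt*-/- mice and 33.7% with GABA, with similar centres, and the difference in spread was not tested. With GABA the levels in replicates 1 to 6 were 487, 667, 588, 1048, 1172 and 942, with 3 libraries below and 3 above the range of the WT libraries. The lowest, replicate 1, also stood apart over all genes: its chi-square statistic divided by the degrees of freedom was 2.96 to 7.01 against the other 5 GABA libraries, which were at 1.30 to 2.85 among themselves. It had the lowest share of macrophage markers of the group (1.26%) and 16 molecules of *Ifng*. Replicate 1 was not the only such library. In *muMt*-/- TAMs, replicate 4, with the lowest sum (628), was at 2.40 to 3.02 against its group, where the others were at most at 2.05, and had the lowest macrophage marker share of the group (1.76%) and the highest nuclear RNA share (1.05%). As a share of all molecules the genes made up 0.387% to 0.472% in WT mice, 0.309% to 0.519% in *muMt*-/- mice and 0.242% to 0.638% with GABA. Whether replicate numbers mark batches is not given in the labels.

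Single genes in the GABA-treated CD8+ libraries, picked out after their values were seen, differed between the same replicate numbers. *Ifit3* was at 0.636, 1.83, 3.10, 6.81, 8.59 and 6.31 in replicates 1 to 6, *Ifit1* at 0.636, 0.914, 0.620, 3.72, 3.12 and 3.15, and *Irf7* at 1.91, 0, 3.10, 6.20, 6.25 and 7.88. Other genes of the list did not follow this order. *Oasl2* was at 5.08, 3.66, 1.86, 1.24, 0.781 and 1.58, and *Isg15* at 11.4, 2.74, 4.34, 4.34, 1.56 and 2.36. The share of macrophage markers there was 0.525%, 0.399%, 0.560%, 0.130%, 0.114% and 0.322%. The summed level of the list was not split in that way in CD8+ T cells (133, 93.3, 101, 130.1, 129 and 178). Over all genes, the chi-square statistic divided by the degrees of freedom was 3.01 to 6.16 for GABA replicate 1 against its group (others at most 3.68), and 2.95 to 4.90 for *muMt*-/- replicate 1 (others at most 2.90). Whether libraries of a number were handled together is not known, and its part in the spread and the covariation with GABA was not tested.

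The summed level in CD8+ T cells was 103 to 151 in WT mice (median 116), 107 to 155 in *muMt*-/- mice (median 133) and 93.3 to 178 with GABA (median 129), with coefficients of variation of 14.3%, 12.3% and 23.5%. The groups overlapped, and the highest library was GABA replicate 6. On the scale of all 36 libraries, the sum was 416 to 536 in WT TAMs (median 459) and 178 to 250 in WT CD8+ T cells (median 202), without overlap and with a log2 ratio of the means of 1.19 (1.39 with TMM).

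**Figure D2:**
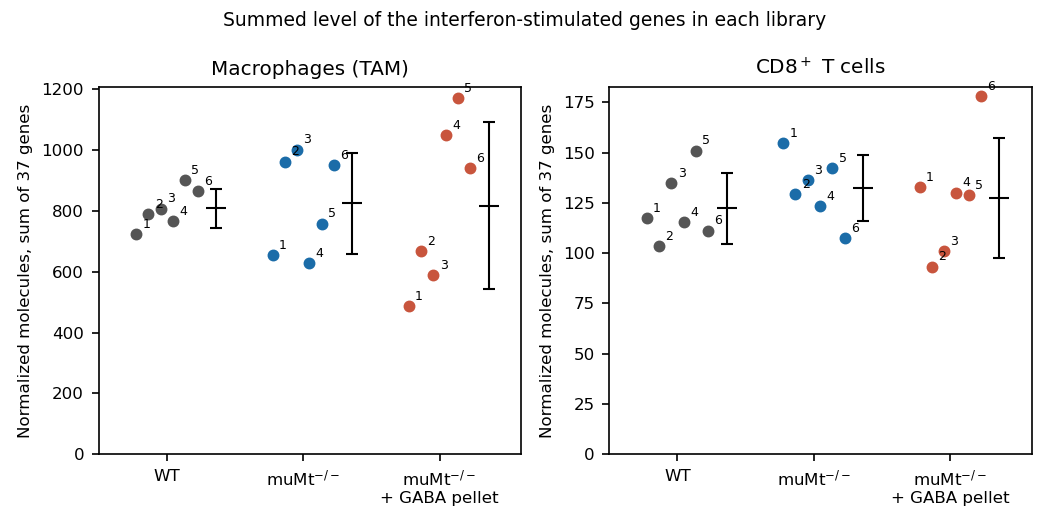
Sum of the normalized molecules of the 37 genes in each library (points, numbered by replicate), with the mean and standard deviation of each group of 6 libraries beside them, on a scale of its own for each cell type. In TAMs the groups have similar means and the spread is 7.92% of the mean in WT mice and 33.7% with GABA, and in CD8+ T cells all groups overlap.

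The genes moved together between TAM libraries. After group means were subtracted, the Pearson correlation of log2 levels over the 18 TAM libraries had a median of 0.43 over the 561 pairs of the 34 genes with a mean above 5, and 42.8% of the pairs were above 0.5. Over all pairs of 5310 genes the median was -0.00 and 4.94% were above 0.5. The pairs are not independent, since all share the same libraries and size factors, so these values describe the libraries and carry no p. Without any single library the median lay between 0.36 (without *muMt*-/- GABA replicate 1) and 0.47. Taken within each group of 6 libraries, it was 0.05 in WT mice, 0.35 in *muMt*-/- mice and 0.67 with GABA, in the order of the spread of the summed level. In CD8+ T cells only 8 genes had a mean above 5, and over their 28 pairs the median was 0.03, with 3.57% above 0.5, against 0.00 and 5.01% over all genes. Counts of a few molecules per library limit what a correlation can show there.

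**Figure D3:**
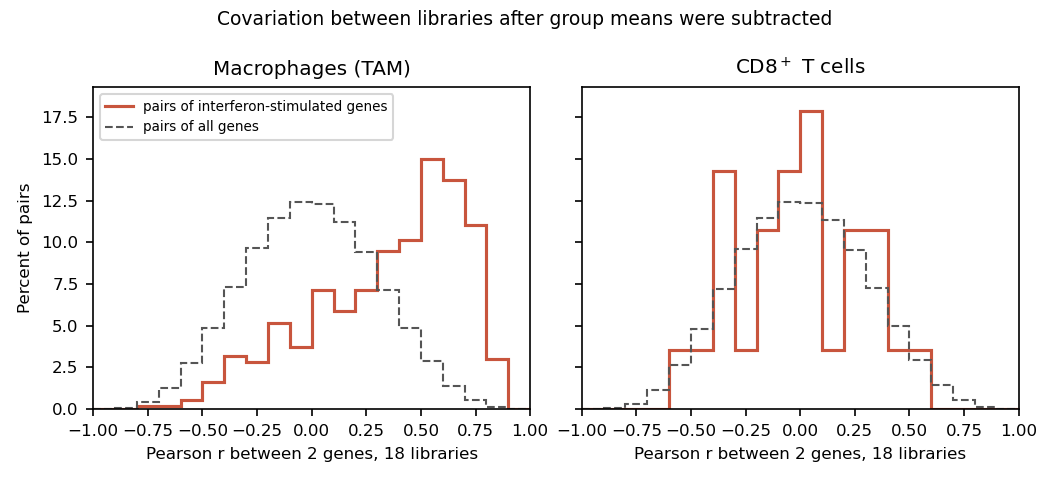
Distribution of Pearson's r between pairs of genes over the 18 libraries of each cell type, after group means were subtracted, for the interferon-stimulated genes (solid, red) and all genes (dashed), with a mean level above 5. In TAMs the interferon-stimulated genes are shifted to a median of 0.43, and in CD8+ T cells the 28 pairs lie around 0.03.

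Single genes differed in how far they followed the rest. Against the mean of the other genes of the list over the 18 TAM libraries, r was 0.88 for *Ifit3*, 0.87 for *Irf7*, 0.86 for *Ifit1*, 0.85 for *Usp18* and 0.84 for *Ifit2*, the 5 highest of the 34. It was 0.77 for *Ifi204* and *Trim30a*, 0.73 for *Zbp1* and 0.72 for *Isg15* and *Rsad2*. At the other end were *Parp14* (0.17), *Ddx58* (0.10), *Samd9l* (-0.16), *Eif2ak2* (-0.25) and *Irf9* (-0.42). *Samd9l* and *Irf9*, which had the lowest p in comparisons with GABA, thus did not follow the rest of the list.

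Among all other genes of TAMs, the 15 with the highest r to the mean of the list were *Ifitm3* (0.95), *Ly6e*, *Shisa5*, *Ly6a*, *Psap*, *Axl*, *H2-K1*, *Tgm2*, *AW112010*, *Ifi47*, *Fuca2*, *Gpr171*, *H2-DMb1*, *H2-D1* and *Lgals3bp* (0.86), over 18 libraries. Of these, *Ifitm3*, *Ly6e*, *Shisa5*, *Ly6a* and *Lgals3bp* were on the list of other genes induced by type I interferon and *Ifi47* on that of IFNγ-induced genes. By list, the median r to the mean of the 37-gene list was 0.71 over 29 IFNγ-induced genes, with 82.8% above 0.5, and 0.50 over 50 other genes induced by type I interferon, with 50% above 0.5, where all genes had 0.00 and 14.2%. It was 0.25 over 11 genes of receptors and JAK-STAT signalling and 0.17 over 13 genes of the induction of interferon. Among the single genes, *Cxcl9* (0.83) and *H2-Ab1* (0.85), both induced by IFNγ, stood beside *Irf1* (0.49), *Ifnar2* (0.25) and *Ifnar1* (0.07). The movement between libraries was shared by genes of both interferon pathways and was not confined to them, and whether an interferon acted was not tested.

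Other measures of the TAM libraries moved with the list as well. Over 22 macrophage markers the median r was 0.39 and 45.5% were above 0.5, against 14.2% of all genes, with *Tyrobp* (0.85), *Ctss* (0.83), *Fcgr3* (0.81) and *Lyz2* (0.79) high and *Itgam* (-0.70), *Mrc1* (-0.66) and *Adgre1* (-0.57) opposite. The markers held 2.13% to 2.74% of the molecules in WT mice, 1.76% to 2.30% in *muMt*-/- mice and 1.26% to 2.46% with GABA, *Ctss* was the most abundant and 0 of 22 were without a molecule. For 3 nuclear RNAs the median r was -0.57, and the 4 in the table, *Malat1* the most abundant, held 0.317% to 0.389%, 0.469% to 1.05% and 0.349% to 0.534% of the molecules. The 11 monocyte markers in the table, *Fn1* the most abundant, held 0.262% to 0.319%, 0.366% to 0.541% and 0.335% to 0.443%. For 8 of them the median r was -0.18, with *Ly6c2* (0.82) and *Plac8* (0.57) high and *Vcan* (-0.69), *Ccr2* (-0.67) and *Fn1* (-0.53) opposite. For 6 tumour and stroma markers it was -0.13, for 3 dendritic cell markers 0.00 and for 2 plasmacytoid dendritic cell markers -0.39, and with the log2 depth of the libraries r was 0.32. The part of these measures in the covariation was not tested.

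Genes of marker lists also passed between *muMt*-/- and WT TAMs, where 2.05% of all genes did. Of 22 macrophage markers, *Itgam* was higher and *C1qb*, *C1qc* and *Lyz2* were lower past the threshold. Of 10 monocyte markers, *Ccr2*, *F10*, *Fn1* and *Plac8* were higher, of 3 nuclear RNAs, *Malat1* and *Neat1* were higher, and of 8 tumour and stroma markers, *Cdh1* was higher, while the other 7 had log2 fold changes below 0 (median of the 8, -0.38) and did not pass. These genes were named because they passed, after their values were seen. In the other comparisons within a cell type 0 genes of these lists passed by edgeR. From 0 to 16 of a list had an unadjusted p under 0.05 there, against 3.71% to 8.46% of all genes. Between *muMt*-/- and WT CD8+ T cells 16 of 19 macrophage and 4 of 9 monocyte markers were higher, against 6.17%. Between GABA-treated and WT TAMs 5 of 10 monocyte markers were higher, against 7.02%. With GABA against without, 2 of 3 nuclear RNAs were lower in TAMs, against 8.46%. In CD8+ T cells 1 of 5 tumour and stroma markers was higher and 3 lower, against 3.71%. Genes of dendritic cells (0 of 7), plasmacytoid dendritic cells (0 of 2), neutrophils (0 of 6), T cells (0 of 2) and B cells (0 of 2) gave no call between *muMt*-/- and WT TAMs. At an unadjusted p under 0.05 there were 2, 0, 1, 0 and 1 of them, against 14.9% of all genes. No NK cell marker could be tested.

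In CD8+ T cells the 15 genes that followed the mean of the 8 interferon-stimulated genes most closely ran from *Ube2n* (r = 0.72 over 18 libraries) to *Cyth4* (0.58), and 0 of the 15 were on a list used here. With IFNγ-induced genes the median r was 0.29 over 20 genes, with other genes induced by type I interferon 0.03 over 22 genes, and with all genes 0.03. Of either list 0% were above 0.5, against 2.13% of all genes.

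The promoters of the list were read from 250 bases before to 50 after the start of each gene, from RefSeq (build GRCm38.p6). The set of promoter sequences used covers 27 of the 37 genes, and not analysed here were those of *Dhx58*, *Zbp1*, *Ifi204*, *Usp18*, *Oas2*, *Mx1*, *Mx2*, *Parp9*, *Parp14* and *Rtp4*. The core of the ISRE, spelled GAAANNGAAA and searched on both strands, was present in 12 of the 27 genes (44.4%), against 3.99% of the 27025 genes with a promoter. The 12 were *Bst2*, *Ddx58*, *Eif2ak2*, *Ifih1*, *Ifit1*, *Ifit3*, *Isg15*, *Oas1a*, *Oas3*, *Rsad2*, *Stat2* and *Trim30a*. The GAS motif, spelled TTCNNNGAA and searched on both strands, was present in 6 (22.2%), against 9.55% of all genes. On the list of other genes induced by type I interferon the shares were 48.1% and 9.62%, and among IFNγ-induced genes 58.8% and 47.1%. A match describes the letters in this window and is not evidence of binding.

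As examples of promoters with the motif, 4 are shown here with the ISRE core in capitals, 5′ to 3′ on the strand of the gene. Whether the motif goes with the covariation in TAMs was not tested. *Isg15* (chr4:156200769-156201068, minus strand) holds 3 overlapping matches, *Ifit1* (chr19:34640639-34640938, plus strand) and *Ifit3* (chr19:34583279-34583578, plus strand) hold 2 each, and *Rsad2* (chr12:26456403-26456702, minus strand) holds 1.
Isg15: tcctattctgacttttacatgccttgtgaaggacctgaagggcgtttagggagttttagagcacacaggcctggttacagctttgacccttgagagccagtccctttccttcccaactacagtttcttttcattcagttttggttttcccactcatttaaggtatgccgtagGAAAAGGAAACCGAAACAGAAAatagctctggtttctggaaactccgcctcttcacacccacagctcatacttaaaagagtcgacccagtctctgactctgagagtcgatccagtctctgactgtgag
Ifit1: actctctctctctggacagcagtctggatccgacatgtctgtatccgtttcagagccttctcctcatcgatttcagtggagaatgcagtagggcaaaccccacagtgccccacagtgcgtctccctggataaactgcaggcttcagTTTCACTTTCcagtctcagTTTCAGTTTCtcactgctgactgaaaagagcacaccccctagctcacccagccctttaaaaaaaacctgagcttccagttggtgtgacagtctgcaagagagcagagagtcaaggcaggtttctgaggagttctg
Ifit3: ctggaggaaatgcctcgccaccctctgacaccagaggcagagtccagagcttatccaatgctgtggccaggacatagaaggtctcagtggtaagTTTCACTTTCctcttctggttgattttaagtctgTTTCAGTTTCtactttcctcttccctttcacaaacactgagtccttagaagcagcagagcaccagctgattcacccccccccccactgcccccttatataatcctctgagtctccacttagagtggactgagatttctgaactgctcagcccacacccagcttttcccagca
Rsad2: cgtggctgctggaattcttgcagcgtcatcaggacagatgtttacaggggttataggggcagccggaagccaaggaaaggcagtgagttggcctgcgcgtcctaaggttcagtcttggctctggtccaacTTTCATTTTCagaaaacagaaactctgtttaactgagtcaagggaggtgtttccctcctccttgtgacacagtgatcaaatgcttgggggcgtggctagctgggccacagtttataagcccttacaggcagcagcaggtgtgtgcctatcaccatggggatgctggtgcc

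By position, 15 of the 37 genes lay in 6 clusters with less than 200 kb between neighbours. These were *Rsad2* with *Cmpk2*, *Parp14*, *Dtx3l* and *Parp9* together, *Mx1* with *Mx2*, *Ifit2*, *Ifit3* and *Ifit1* together, *Oasl2* with *Oasl1*, and *Oas2*, *Oas3* and *Oas1a* together. Some neighbours passed together between the cell types and others did not, and differences between neighbours were not tested. *Oasl2* (2.71) and *Oasl1* (3.58) both passed. In the cluster of *Ifit2*, *Ifit3* and *Ifit1* the log2 fold changes were 1.58, -0.18 and 0.28, and *Ifit2* passed, while in TAMs all 3 followed the rest of the list (r of 0.84, 0.88 and 0.86). In the cluster of *Parp14*, *Dtx3l* and *Parp9* the log2 fold changes were 1.17, 0.64 and 0.95, and r was 0.17, 0.81 and 0.78.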

How the data were processed

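RNA of 100 sorted cells per library was measured in 36 libraries, 6 for each of 3 groups of mice in TAMs and in CD8+ T cells. The authors aligned the reads to mm10 with STAR and assigned them to genes of the refFlat annotation, and the deposited table holds counts of molecules for 24781 gene names. All 36 columns could be mapped to a library, with 0 left over. Of the gene names, 26 look like dates, 2 of them repeated, and these were kept as listed. The table holds 0 spike-in controls, and 9188 genes had no molecule in any library.

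The counts were normalized with DESeq2's size factors for levels and with TMM for tests. Tests used edgeR 4.0.16 (quasi-likelihood F test, 1 coefficient per group, no covariate) in R 4.3.3, on the 18 libraries of a cell type, or on all 36 for the comparison of cell types and for interactions. The tests took in each gene whose normalized counts averaged more than 1, with Benjamini-Hochberg adjustment over all of them and a threshold of 0.05. DESeq2 1.42.0 (Wald test) was the other tool. Descriptions used Python 3.11.15 with numpy 2.4.6, pandas 2.3.3 and scipy 1.17.1, and figures matplotlib 3.10.9. Libraries of the same replicate number were not paired. Correlations of 54 such pairs, within and between cell types, lay on both sides of 0. Between TAM and CD8+ libraries of a group, r was -0.01 to 0.11 in WT mice (median 0.03). It was -0.06 to 0.15 in *muMt*-/- mice (median 0.04) and -0.02 to 0.41 with GABA (median 0.05). Whether these came from the same mice is not known, and the tests between cell types treat them as independent. TAM libraries held 100254 to 304100 molecules and CD8+ libraries 22896 to 98015, so a gene with few molecules per library is measured with a large counting error.

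Results were named by a fixed rule: the 3 genes of the list with the lowest p in each comparison within a cell type where fewer than 3 pass, the 3 with the highest mean in each cell type, *Irf7*, *Isg15*, *Ifit3*, *Ifnar1*, *Ifnar2*, *Irf1*, *Ifnb1* and *Ifng* whatever their values, and the 15 genes that follow the list most closely in each cell type. Of the genes the rule names, 1 is not reported here. The genes of the list, the further lists and this rule were chosen with earlier results of these data known, so no p was computed for the list as a whole. The further lists are interferon receptors and JAK-STAT signalling, induction of interferon, interferons, other genes induced by type I interferon, IFNγ-induced genes, nuclear RNA, and markers of macrophages, T cells, B cells, plasmacytoid dendritic cells, dendritic cells, monocytes, neutrophils, NK cells, and tumour and stroma. Of their genes, 3 are on 2 lists.

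The alternatives tried were size factors in edgeR, DESeq2, unadjusted p, filterByExpr, no filter, a robust fit, the replicate number as a block, depth or the share of macrophage markers as a covariate, the 12 libraries of a comparison alone, and leaving out each library. Reads were not realigned, so near-identical genes could not be separated, and *Ighm* was left out.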

Additional observations from a re-analysis of the deposited data

Results flagged for a closer look

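For 23 genes and for the summed level of the list, the highest or lowest library of each group of 6 was compared with the other 5 (Dixon's ratio at 95%). Of 138 groups, 10 held a library far from the others, where chance flags about 1 in 20 groups, or 6.9 here. That number is a rough guide only. A single molecule against 0 in the other 5 libraries always gives the highest ratio, and groups without a molecule were not counted. Values are normalized molecules, and no explanation was tested.

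In TAMs these were *Samd9l* in *muMt*-/- replicate 4 (30.7, others 3.11 to 12.4), *Ifnb1* in *muMt*-/- GABA replicate 5 (1.01 from 1 molecule, others 0), *Ifng* in WT replicate 1 (0.853 from 1 molecule, others 0) and *Ifng* in *muMt*-/- GABA replicate 1 (21.2 from 16 molecules, others 0 to 1.66).

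In CD8+ T cells they were *Zbp1* in *muMt*-/- replicate 2 (5.94, others 9.0 to 10.1), *Samd9l* in *muMt*-/- replicate 1 (6.07, others 0.818 to 2.24), *Oas2* in WT replicate 4 (1.03 from 1 molecule, others 0) and in *muMt*-/- replicate 1 (3.03 from 3 molecules, others 0 to 1.12), and *Isg15* in WT replicate 3 (8.84, others 4.57 to 5.50) and in *muMt*-/- GABA replicate 1 (11.4, others 1.56 to 4.34).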

How the results depend on the processing

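For the 18 main results (counts of genes that passed, summed levels and covariation), 94 values under other settings stayed within the margin of the reported one and 18 moved. The 168 values without single libraries, computed for 11 of the 18 (not for summed levels), all stayed within it. The margin was wide enough to hold DESeq2's lower count between the cell types. It also held medians of covariation in CD8+ T cells from -0.07 to 0.06 without single libraries. At an unadjusted p under 0.05 in edgeR the counts of 0 became 1, 2 and 3 in TAMs (*muMt*-/- against WT, GABA-treated against untreated, GABA-treated against WT), 2, 1 and 1 in CD8+ T cells, and 1 for the interaction with the genotype. With DESeq2 at an unadjusted p under 0.05 they became 1, 2 and 1 in TAMs, 2 and 1 for the first 2 comparisons of CD8+ T cells, and 1 for that interaction. These thresholds admit more genes by construction. With no filter on low counts, 1 gene passed between GABA-treated and WT TAMs, *Samd9l* (0.98, adjusted p = 0.0259).

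Between TAMs and CD8+ T cells the 18 genes became 11 with filterByExpr and 2 with depth as a covariate. Every TAM library is deeper than every CD8+ library, so that covariate stands for the cell type as well. The log2 ratio of the summed level was 1.39 with TMM. Covariation in TAMs was 0.54 with a mean above 20, and in CD8+ T cells too few genes were above 20 to give a value. With the replicate block no count moved. For these values the cause was not tested.

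For 36 fold changes of single genes, 242 values under other settings and 426 without single libraries kept their direction and side of the threshold. There, 21 and 6 lost the call, and 1 gained it. The fold change of *Ifi204* between *muMt*-/- and WT CD8+ T cells reversed to -0.27 (adjusted p = 0.994) with the share of macrophage markers as a covariate, and the cause was not tested.

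CD8+ libraries held 43 to 226 molecules of the 37 genes each, so that small differences of single genes could not be seen there.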
